A study of Mus musculus with 6 samples.

Results

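The genes described here encode the transcription factors of the AP-1 group (Fos, Fosb, Fosl1, Fosl2, Jun, Junb, Jund and Atf3), the zinc finger factor Egr1 and the bHLH factor Myc. They were chosen by symbol: 10 genes of the 24940 in the exon count table, and all 10 passed the filter on low counts. RNA sequencing of polyadenylated RNA was carried out on 6 libraries of primary hepatic stellate cells from female C57BL/6JBomTac mice. For 3 libraries (OCA A, OCA B and OCA C) the agent was obeticholic acid (OCA), a bile acid derivative that activates the nuclear receptor FXR, at 10 µM. For the other 3 (DMSO A, DMSO B and DMSO C) they received the vehicle dimethyl sulfoxide in the same volume. Treatment began 2 days after isolation, was added to the medium already on the cells and lasted 6 hours. The labels give no genetic modification, and they do not give the age of the mice or say whether cells of several mice were pooled. It is also unstated whether replicates are independent animals or cultures, so p-values reflect only how these libraries vary, which may be technical variation.

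AP-1 is a dimer. FOS proteins cannot pair with themselves and bind DNA as heterodimers with a JUN protein, whereas JUN proteins can also pair with each other or with ATF3. Fos, Fosb, Jun, Junb, Atf3, Egr1 and Myc are classical immediate early genes, transcribed within minutes of a mitogen or stress signal from transcripts that decay quickly, while JUND and FOSL2 are generally held at steadier levels. In stellate cells, AP-1 activity rises as the cells leave quiescence in culture or in injured liver, and FOSL1, FOSL2 and JUND have been linked to fibrosis genes. EGR1 activates growth factor and matrix genes and its own NAB corepressors, and MYC, bound to MAX, drives ribosome production and cell growth.

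Column totals lay between 12260882 and 16336240 counts per library, and 3 counts correspond to between 0.181 and 0.251 CPM (CPM is the count scaled to the TMM-normalized library size). Of 12 stellate cell markers, all 12 were expressed above the filter, with a summed level of 3724 to 4232 CPM in DMSO and 3193 to 4028 CPM in OCA. Of these 12, Reln and Rgs5 fell and none rose, beside 3.03% of all tested genes lower and 2.18% higher. At an unadjusted p under 0.05, 4 were lower and 2 higher, beside 2405 of all 12687 tested genes in either direction. DESeq2 called 1 lower, limma-voom 3 lower, and both called 0 higher. With offsets for a trend on transcript length in each library, 2 were lower and 1 higher. Without OCA B and DMSO A together, 5 were lower and 1 higher. The calls of Reln and Rgs5 were both lost when DMSO A, OCA A or OCA C was left out (adjusted p up to 0.132 and 0.183). Reln also lost its call with DESeq2 (adjusted p = 0.276) and robust estimation (0.364), and Rgs5 with robust estimation (0.0571) and without DMSO B (0.105). The part of stellate cell state in the results that follow was not tested. Markers of hepatocytes summed to between 2.30 and 6.98 CPM over the 6 libraries, those of macrophages to between 6.36 and 13.1, those of endothelial cells to at most 6.76, and those of cholangiocytes and mesothelial cells to between 4.35 and 7.60. The hepatocyte marker Tat and the cholangiocyte marker Krt7 had 0 counts in every library. Of the 7 tested markers of other cell types none was called by edgeR, DESeq2 or limma-voom, and 0 had an unadjusted p under 0.05. In these bulk libraries fewer cells of a type and less RNA per cell cannot be told apart. Abcb11, the bile salt export pump and a direct FXR target, lay between 0.0976 and 0.181 CPM in DMSO and between 4.50 and 5.57 CPM in OCA, and the groups did not overlap. In the list of FXR check genes edgeR also called Osgin1 higher (log2 fold change 1.47, adjusted p = 6.50e-11). Nr1h4, which encodes FXR, was called lower (-0.35, adjusted p = 0.00535). Osgin1 and Nr1h4 were called in all 18 alternative fits. Nr0b2, also in this list, did not pass the filter on low counts.

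Under OCA, Myc and Fosl2 fell and the other 8 genes did not pass the test (quasi-likelihood test of edgeR, adjusted by Benjamini-Hochberg over 12687 genes, threshold 0.05). The 2 of 10 genes called lower stand beside 3.03% of all tested genes called lower and 5.20% called in either direction. None of the 10 was called higher, beside 2.18% of all tested genes. DESeq2 and limma-voom also called 0 higher. At an unadjusted p under 0.05, 2 genes, Jund and Atf3, were higher and 4 lower. Of all 12687 tested genes, 2405 passed that threshold in either direction. In 4 genes (Myc, Fosl2, Jun and Junb) every OCA library lay below every DMSO library, beside 11.3% of all tested genes. In 1, Jund, they lay above, beside 11.6%, so that the groups of 5 genes did not overlap, beside 23.0% in either direction. The median log2 fold change of the 10 genes was -0.04, with 5 above 0 and 5 below (49.8% of all tested genes were below 0), and that of all tested genes was 0.00076. Without OCA B and DMSO A together, 3 genes were lower (Myc, Fosl2 and Junb) and 0 higher.

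**Figure D1:**
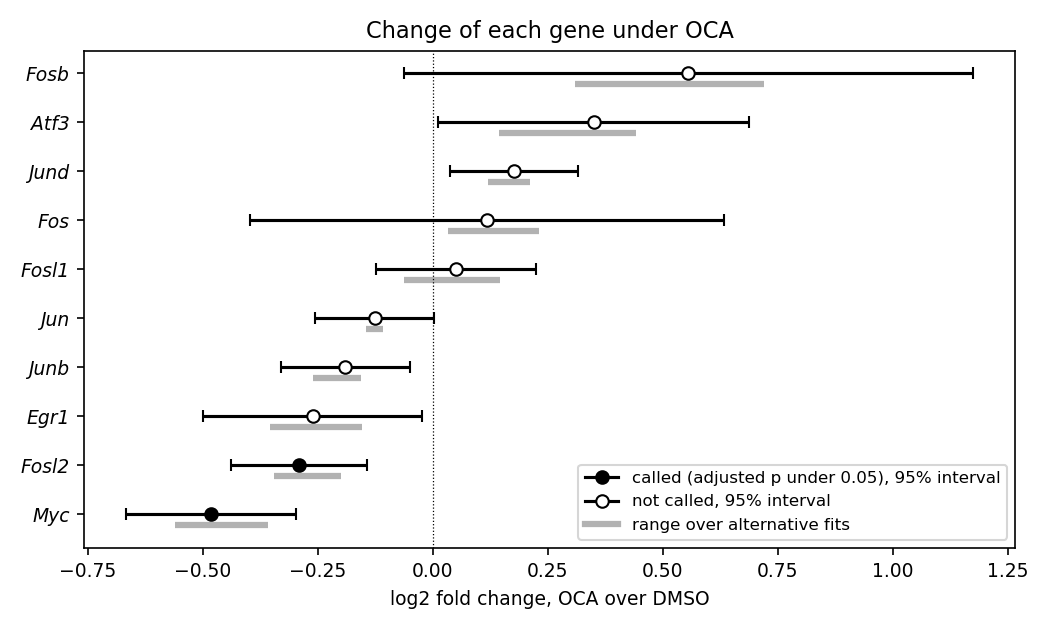
Log2 fold change of each gene, OCA over DMSO (horizontal axis), with its 95% interval (whiskers) from the fit to 3 libraries a group; filled points passed an adjusted p of 0.05, open points did not. The grey bars give the range of the fold change over the alternative fits: those of Myc (-0.56 to -0.36) and Fosl2 (-0.35 to -0.20) stay below 0, and that of Fosl1 (-0.06 to 0.15) spans it.

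Levels per kilobase of exon set these genes far apart within the same cells. Averaged over the 6 libraries, Jund had 71.0 CPM per kb, Junb 63.8, Fosl1 56.4, Jun 43.3, and Myc 39.9, while Fosl2 reached at most 30.6. Egr1 had 9.84 CPM per kb, Atf3 6.81, Fos 2.46 and Fosb 1.22, so Jund stood 58.4-fold above Fosb. Fos and Fosb were thus at the bottom of the order, whereas Junb, Jun and Myc, also immediate early genes, ranked 2, 4 and 5 in it. Per kb, Fos stood at percentile 18.1 of all tested genes and Jund at percentile 89.6. Over all 6 libraries the ranges of Jund and Junb overlapped, as did those of Junb and Fosl1, Jun and Myc, Myc and Fosl2, and Egr1 and Atf3. The ranges of Fosl1 and Jun, Fosl2 and Egr1, Atf3 and Fos, and Fos and Fosb did not overlap. The order itself differed between the groups. In DMSO the mean of Junb (68.0 CPM per kb) stood above that of Jund (66.6) with overlapping ranges, and in OCA Jund (75.3) stood above Junb (59.5) without overlap. In DMSO Myc (45.5 to 47.6 CPM per kb) overlapped Jun (43.9 to 45.9), whereas in OCA Myc (27.4 to 36.4) lay below Jun (41.1 to 41.6).

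**Figure D2:**
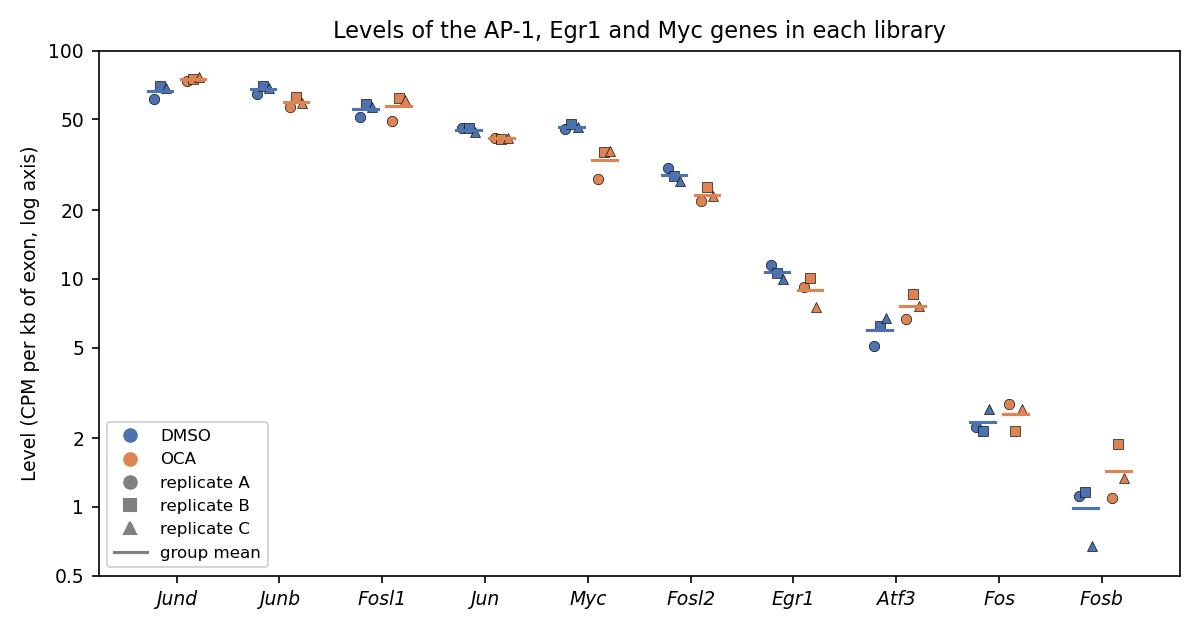
Level of each gene in each library, in CPM per kb of exon on a log axis, with DMSO in blue and OCA in orange, a symbol for each replicate letter and a line at the group mean (n = 3). Jund, Junb, Fosl1, Jun, Myc and Fosl2 lie above 20 CPM per kb in every library, and Fos and Fosb below 3.

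The FOS family supplies the subunits of AP-1 that need a JUN partner. Fosl2 encodes FRA-2, which lacks the strong transactivation domain of FOS (NM_008037, mm10 chromosome 5, 32136472 to 32157839, plus strand, 4 exons). Its levels were 179, 165 and 158 CPM in DMSO A, B and C, and 129, 147 and 135 CPM in OCA A, B and C. The groups did not overlap, and OCA B was the highest of its group. Fosl2 fell from 168 ± 10.9 to 137 ± 9.42 CPM (SD, n = 3), a log2 fold change of -0.29 (SE 0.07, 95% interval -0.44 to -0.14, adjusted p = 0.0211). Its transcript of 5857 bases falls in the longest eighth of tested genes, whose median log2 fold change was -0.14. With offsets for a trend on transcript length in each library its log2 fold change was -0.20 and the call was lost (adjusted p = 0.0600). It was also lost without DMSO A (log2 fold change -0.24, adjusted p = 0.112), without OCA A (-0.25, adjusted p = 0.122) and without OCA C (-0.28, adjusted p = 0.0911). Without OCA B and DMSO A together it was -0.29 (adjusted p = 0.00319).

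Fosl1, which encodes FRA-1, a target of AP-1 itself (NM_010235, chromosome 19, 5447698 to 5455938, plus strand, 4 exons), had 87.3, 98.9 and 96.6 CPM in DMSO and 84.0, 105 and 103 CPM in OCA. The groups overlapped, OCA A holding the lowest and OCA B the highest of the 6 values. The log2 fold change was 0.05 (SE 0.08, 95% interval -0.12 to 0.22, adjusted p = 0.792), and its sign turned when DMSO A (-0.0033) or OCA B (-0.0094) was left out. The span of Fosl1 shares 2776 bases with that of Ccdc85b on the opposite strand (122 ± 8.26 CPM in DMSO and 129 ± 5.36 CPM in OCA). The sources used here do not state how the counting treated strand, so the value of Fosl1 is uncertain.

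Fos itself (NM_010234, chromosome 12, 85473890 to 85477274, plus strand, 4 exons), the founding member and the one with the strongest transactivation, was scarce. It had 78, 54 and 87 counts in DMSO and 79.5, 59 and 72 in OCA, or 4.71, 4.52 and 5.66 CPM against 5.97, 4.52 and 5.65 CPM. DMSO B and OCA B were the lowest of their groups, at the same level. The log2 fold change was 0.12 with a 95% interval of -0.40 to 0.63 (adjusted p = 0.834), which spans changes of either sign.

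Fosb (NM_008036, chromosome 7, 19302696 to 19310045, minus strand, 4 exons), a close paralog of Fos, had 4.22, 4.39 and 2.54 CPM in DMSO and 4.13, 7.13 and 5.06 CPM in OCA. OCA B stood above the other libraries and DMSO C below them, and OCA A was within the DMSO range. The log2 fold change of 0.56 was the largest of the 10 in size, but also the least precise (SE 0.30, 95% interval -0.06 to 1.17, adjusted p = 0.321). It rested on 161.5 counts in DMSO and 212.5 in OCA, summed over libraries.

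The JUN family can form AP-1 with or without a FOS partner, and each of its genes has 1 exon. Jun (NM_010591, chromosome 4, 95049036 to 95052222, minus strand), the strongest activator of the family, had 146, 145 and 140 CPM in DMSO and 132, 131 and 132 CPM in OCA. The OCA libraries lay within 2 CPM of each other and below all DMSO libraries. The difference was small, with a log2 fold change of -0.13 (SE 0.06, 95% interval -0.26 to 0.0031), and did not pass the test (adjusted p = 0.276).

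Junb (NM_008416, chromosome 8, 84976909 to 84978748, minus strand), a weaker activator that can counteract JUN, had 119, 129 and 126 CPM in DMSO and 104, 115 and 109 CPM in OCA. Here too the groups did not overlap, and OCA A and DMSO A were the lowest of their groups. The log2 fold change of -0.19 (SE 0.07, 95% interval -0.33 to -0.05) missed the threshold (adjusted p = 0.112). It passed with the length trend offsets (-0.24, adjusted p = 0.0271) and without OCA B and DMSO A together (-0.26, adjusted p = 0.0146). Those were the only 2 of the 18 alternatives in which Junb was called. Junb was not called when each library was left out in turn (6 fits, adjusted p between 0.0576 and 0.338).

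Jund (NM_010592, chromosome 8, 70697739 to 70700616, plus strand), whose protein is usually abundant in resting cells and which lies 14.3 Mb from Junb, had values on the other side. It had 177, 201 and 197 CPM in DMSO and 212, 217 and 220 CPM in OCA, and every OCA library lay above every DMSO library. The log2 fold change was 0.18 (SE 0.07, 95% interval 0.04 to 0.32) and did not pass the test (adjusted p = 0.142). It was 0.12 without DMSO A (adjusted p = 0.468) and 0.12 without OCA B and DMSO A together (adjusted p = 0.472). GENCODE places exons of other genes on the opposite strand over those of Jun, Junb and Jund (Junos, Prdx2 and Gm11175), and the sources used here do not state how reads there were counted, so these values are uncertain.

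Shares within a family do not depend on library size, but a trend on transcript length in each library can move them. Of the summed CPM per kb of the JUN family, Jund made up 35.7%, 37.6% and 37.9% in DMSO and 42.8%, 42.1% and 43.2% in OCA. Junb made up 37.7%, 37.9% and 37.9% in DMSO and 32.9%, 34.9% and 33.4% in OCA. In DMSO the shares of Junb (37.8% ± 0.138) and Jund (37.0% ± 1.16) were close, and in OCA Jund was the larger share in every library. The closeness in DMSO depends on the division by length. Without it Jund was the largest share in both groups (41.6% in DMSO and 47.3% in OCA) and Junb the smallest (27.1% and 23.9%). Jun made up 26.6%, 24.6% and 24.2% in DMSO and 24.2%, 22.9% and 23.3% in OCA, OCA A and DMSO C being nearly equal. The family total overlapped between the groups, at 172 to 186 CPM per kb in DMSO and 172 to 179 in OCA.

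In the FOS family, Fosl1 made up 63.4% ± 2.79 of the summed CPM per kb in DMSO and 67.6% ± 1.83 in OCA. Fosl2 made up 35.9%, 31.5% and 30.9% in DMSO and 29.2%, 27.6% and 26.2% in OCA, the OCA libraries all being lower. Fos made up at most 3.76% and Fosb at most 2.07% in any library. The log2 ratio of Fosl1 to Fosl2 per kb was 0.96 ± 0.18 in DMSO and 1.29 ± 0.12 in OCA, and that of Jund to Junb was -0.03 ± 0.04 in DMSO and 0.34 ± 0.06 in OCA. With the length trend offsets the fitted log2 fold changes were -0.0030 for Fosl1 and -0.20 for Fosl2, against 0.05 and -0.29 without them. They were 0.17 for Jund and -0.24 for Junb, against 0.18 and -0.19. These shares are transcript proportions, given without a test, and say nothing of protein. On CPM not divided by length, Fosl2 made up the larger share of its family in both groups (61.9% in DMSO and 55.9% in OCA), its transcript being the longest.

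**Figure D3:**
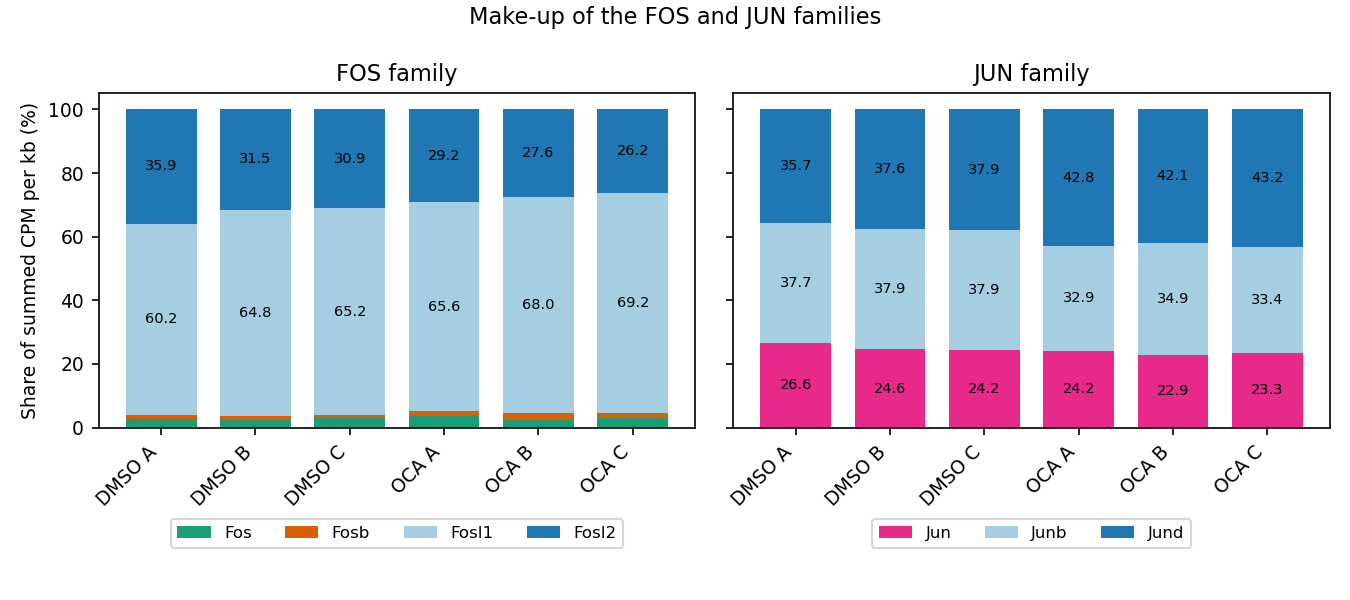
Share of each gene in the summed CPM per kb of the FOS family (left) and the JUN family (right), in percent, 1 bar for each library. In the JUN family the Jund share is 42.1% or more in the OCA libraries and 37.9% or less in the DMSO libraries, and in the FOS family Fosl1 and Fosl2 fill nearly the whole bar.

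Atf3, a stress-induced bZIP factor that pairs with JUN proteins and often represses (NM_007498, chromosome 1, 191170297 to 191183333, minus strand, 4 exons), had 10.0, 12.2 and 13.2 CPM in DMSO and 13.1, 16.9 and 15.0 CPM in OCA. The groups overlapped only through DMSO C and OCA A, and 8 of the 9 OCA-DMSO pairs were higher in OCA. Its log2 fold change was 0.35 (SE 0.16, 95% interval 0.01 to 0.69), with an adjusted p of 0.246. The value fell to 0.14 without OCA B and DMSO A together (adjusted p = 0.806).

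Egr1 (NM_007913, chromosome 18, 34861207 to 34864956, plus strand, 3 exons) had 35.4, 32.7 and 30.7 CPM in DMSO and 28.4, 30.9 and 23.1 CPM in OCA. OCA B was within the DMSO range and OCA C was the lowest library, and 8 of 9 pairs were lower in OCA. The log2 fold change of -0.26 (SE 0.11, 95% interval -0.50 to -0.02) did not pass the test (adjusted p = 0.215). It was -0.15 without OCA C and -0.35 without OCA B, neither passing (adjusted p = 0.587 and 0.0691).

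Myc showed the clearest difference of the 10. Myc (NM_010849, chromosome 15, 61985341 to 61990361, plus strand, 3 exons) had 109, 114 and 111 CPM in DMSO and 65.6, 86.6 and 87.2 CPM in OCA. The DMSO libraries were close together, all OCA libraries were lower, and OCA A was the lowest by more than 20 CPM. Myc fell from 111 ± 2.46 to 79.8 ± 12.3 CPM (SD, n = 3), a log2 fold change of -0.48 (SE 0.09, 95% interval -0.67 to -0.30, adjusted p = 0.00251). The mean fell by 28.4%, and Myc ranked 138th of the 12687 genes by p. It was called in all 18 alternatives, including each of the 6 fits that left out 1 library (adjusted p between 6.41e-05 and 0.0234). Without OCA A the log2 fold change was -0.36, the smallest of these.

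**Figure D4:**
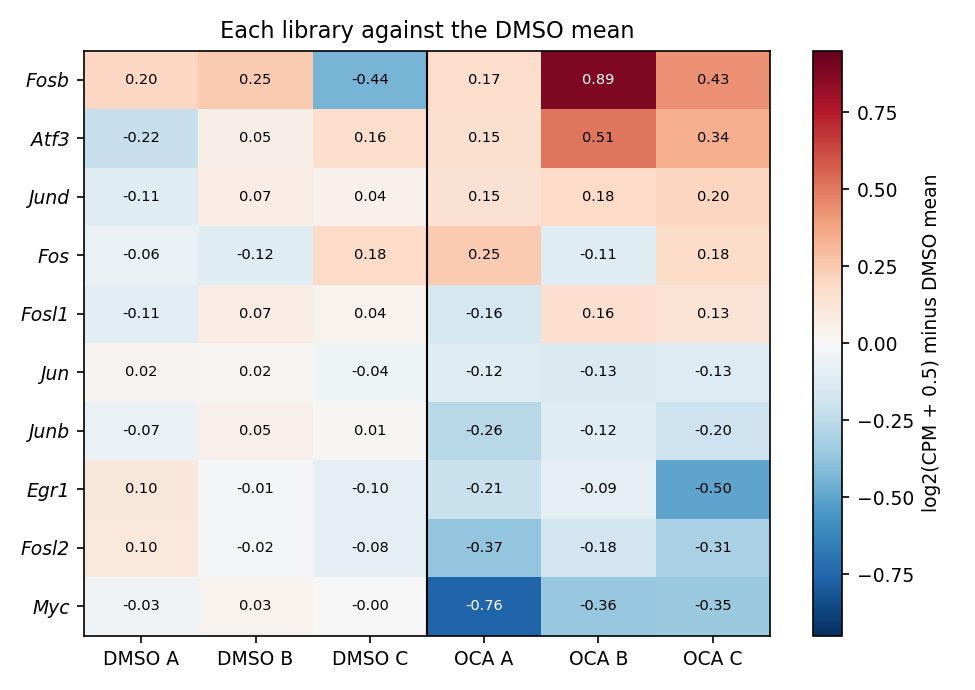
Difference of log2(CPM + 0.5) in each library (columns) from the mean of the DMSO libraries, for each gene (rows, ordered by fold change). Myc is at -0.76 in OCA A and between -0.36 and -0.35 in OCA B and OCA C, Jun is between -0.13 and -0.12 in all 3 OCA libraries, and Fosb is at 0.89 in OCA B.

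No library was the highest or the lowest of its group in all 10 genes. OCA A was the lowest of its group in 7 of the 10 genes, against 35.2% of all tested genes, and OCA B the highest in 6, against 33.3%. In DMSO, DMSO B was the highest in 5 genes, against 34.2% of all tested genes, and DMSO A the lowest in 5, against 36.4%. By likeness of profile over the 6 libraries, measured as the root mean square distance of centred log2 CPM, the pair closest to each other among the 10 was Jun and Junb (0.07). Next were Fosl2 and Junb (0.10) and Fosl2 and Jun (0.11). Outside the group, Armcx4, Brwd3 and Cntrl had the profiles most like that of Myc (distances 0.04, 0.05 and 0.06, against a median of 0.30 over 10734 genes). Arhgef40, Sbno2 and Myo9b were most like Fosl2 (0.02, 0.02 and 0.03, median 0.20), and Ext2, Txnip and Fem1c most like Junb (0.02, 0.03 and 0.03, median 0.16). Over the 4 libraries without OCA B and DMSO A, Armcx4 and Txnip were again among the closest 3 genes, and the other names were replaced.

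Promoter sequences were available from RefSeq (GRCm38.p6, the same assembly as mm10) for 7 of the 10 genes, as 250 bases before to 50 bases after the start. No sequence was available for Fosl1, Egr1 and Myc, so their promoters were not searched for motifs. Bases upstream of the start are shown to set Fosl2 and Jun, whose OCA libraries were all lower, beside Fos and Fosb, the scarcest genes. Capitals mark the motif match that is named for each gene after the sequences (both strands were searched), and positions count back from the base before the start as -1.
Fos (chr12:85473690-85473889, plus strand): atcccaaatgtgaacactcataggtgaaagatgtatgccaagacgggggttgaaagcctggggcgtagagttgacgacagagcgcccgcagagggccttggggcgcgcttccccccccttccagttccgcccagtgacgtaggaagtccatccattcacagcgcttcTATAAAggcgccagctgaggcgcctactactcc
Fosb (chr7:19310046-19310245, minus strand): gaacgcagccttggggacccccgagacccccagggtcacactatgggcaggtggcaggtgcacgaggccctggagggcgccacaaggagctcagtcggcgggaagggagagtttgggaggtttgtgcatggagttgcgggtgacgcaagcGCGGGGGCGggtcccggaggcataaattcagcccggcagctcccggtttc
Jun (chr4:95052223-95052422, minus strand): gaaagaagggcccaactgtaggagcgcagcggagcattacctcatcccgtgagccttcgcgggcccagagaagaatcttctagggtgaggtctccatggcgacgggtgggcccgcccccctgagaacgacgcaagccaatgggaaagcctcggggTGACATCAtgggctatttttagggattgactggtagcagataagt
Fosl2 (chr5:32136383-32136411, plus strand, 29 bases around the match only): ccggctgcgcGCGGGGGCGgaagggcgcg

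Fosl2, called lower, and Fosb, not called, both held the EGR-type motif GCGNGGGCG, at -79 and -50, in the form GCGGGGGCG. This motif was in 5.55% of 32851 promoter windows of the same length, and it overlaps the GC box GGGCGG in both genes. The bases upstream of the RefSeq start of Fosl2 also lie in a GENCODE transcript, so its match is in annotated transcript sequence and only the bases around it are shown. Jun held TGACATCA, the variant AP-1 site at which JUN-ATF2 dimers are known to bind, at -45, and 3.62% of windows held it. Fos held the TATA motif TATAAA at -33, and 13.6% of windows held it. The palindromic CRE TGACGTCA (1.79% of windows), the AP-1 site TGANTCA (7.81%), the MYC-type E-box CACGTG (7.15%), the CArG box bound by SRF (1.63%) and the inverted repeat bound by FXR with RXR (AGGTCA and its complement with 1 base between, 0.00913%) had no match in the windows of the 7 genes. The starts used for Junb and Jund were not found in GENCODE transcripts of these genes, so for these genes the windows may not be the promoters. These are exact matches of letters in a short window and not measured sites. Other variants of these motifs, and bases outside the window, were not searched.

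Lists of genes that work with these factors were counted in the same fit. Of 24 tested bZIP partners and relatives, 1 rose and 2 fell, beside 2.18% and 3.03% of all tested genes, with a median log2 fold change of -0.03. Jdp2, a repressor that pairs with JUN proteins, rose, with 51.8 ± 1.68 CPM in DMSO and 69.1 ± 3.39 in OCA (adjusted p = 0.00247, log2 fold change 0.42 with an SE of 0.08). It was called in all 18 alternatives. Its OCA libraries (68.5, 66.1 and 72.8 CPM) lay above the DMSO libraries (52.9, 52.6 and 49.9 CPM). The small MAF gene Mafk (132 ± 2.84 to 114 ± 3.36 CPM, adjusted p = 0.0494) fell, and its call was lost in each of the 6 fits that left out 1 library (adjusted p between 0.0597 and 0.190). It was also lost with the replicate block (adjusted p = 0.0507), with unrounded counts (0.0502) and without OCA B and DMSO A together (0.0534). Bach1, a partner of small MAF proteins, fell from 65.6 ± 5.80 to 53.9 ± 1.66 CPM (adjusted p = 0.0473). Its call was lost with DESeq2, the length trend offsets and in every fit that left out 1 library except the one without OCA B (adjusted p between 0.0305 and 0.258 over the 6). Bach1 was also not called with library totals alone (adjusted p = 0.0564) or without OCA B and DMSO A together (0.134).

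Of the 38 tested other immediate early genes, 4 rose and 4 fell, beside 2.18% and 3.03% of all genes, and the median was -0.0077. Sgk1, a kinase gene (log2 fold change 0.57, adjusted p = 1.02e-05), and Errfi1, a feedback inhibitor of the EGF receptor (0.50, adjusted p = 0.000153), rose. Trib1, a pseudokinase gene (-0.49, adjusted p = 0.00275), and Ptgs2, the inducible prostaglandin synthase gene (-0.55, adjusted p = 0.00430), fell. Sgk1, Errfi1, Trib1 and Ptgs2 were called in all 18 alternatives. The other calls, which the naming rule leaves out, were Ier2 (0.36) and Btg2 (0.26) upward and Klf10 (-0.38) and Gadd45g (-0.75) downward. Ier2 lost its call without DMSO B or OCA A, Klf10 without OCA A or OCA C, Gadd45g without DMSO C or OCA A, and Btg2 in every such fit but the one without OCA B. Gadd45g was also lost with DESeq2 (adjusted p = 0.116) and robust estimation (0.198), and Btg2 without OCA B and DMSO A together (0.0772). The largest adjusted p among the fits that left out 1 library was 0.0962 for Ier2, 0.0553 for Klf10, 0.0591 for Gadd45g and 0.0961 for Btg2.

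Among factors upstream, 1 of 7 tested SRF, TCF and MRTF genes fell and none rose, beside 3.03% of all tested genes lower and 2.18% higher. Elk4, a ternary complex factor that acts with SRF at immediate early promoters, fell, with 67.4 ± 9.86 CPM in DMSO and 51.4 ± 6.95 in OCA (adjusted p = 0.0326). It was no longer called without DMSO A, DMSO B, OCA A or OCA C (adjusted p up to 0.238). Of 21 tested MAPK cascade genes 1 fell and none rose, beside the same shares of all tested genes. At an unadjusted p under 0.05, 3 were higher and 1 lower, and DESeq2 and limma-voom each called 0 higher and 1 lower. Braf, a kinase gene at the head of the ERK cascade, fell from 90.1 ± 9.36 to 72.2 ± 3.81 CPM (adjusted p = 0.0250). Its call was lost without DMSO A (adjusted p = 0.155), without OCA C (0.0974) and with the length trend offsets (0.332). Without OCA B and DMSO A together Braf was not called either (adjusted p = 0.156). For the SRF, TCF and MRTF list, 2 genes were lower and 0 higher at an unadjusted p under 0.05. DESeq2 and limma-voom each called 1 lower and 0 higher in this list. Over all 12687 tested genes, 2405 had an unadjusted p under 0.05.

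Of 17 tested AP-1 targets, Mmp10 and Plau fell, Ezr rose and 14 were not called, beside 3.03% of all tested genes lower and 2.18% higher, with a median of -0.09. Plau, the urokinase gene, had a log2 fold change of -0.49 (adjusted p = 0.00148) and Ezr, the ezrin gene, of 0.47 (adjusted p = 0.000917), both called in all 18 alternatives. Mmp10, a stromelysin gene, had 10.5 ± 1.07 and 5.64 ± 1.62 CPM (adjusted p = 0.0211), and leaving out DMSO A, DMSO C, OCA A or OCA C ended the call (adjusted p between 0.0542 and 0.0963). Of 11 tested EGR1 targets, Icam1, Fgf2 and Fn1 fell, F3 rose and 7 were not called, beside the same shares of all tested genes, with a median of -0.11. Icam1, an adhesion molecule gene, had a log2 fold change of -0.35 (adjusted p = 0.00891), called in 17 of 18 alternatives and not without OCA A (adjusted p = 0.0634). Fgf2, a growth factor gene (-0.51), and F3, the tissue factor gene (0.36), each lost the call in 5 of the 6 fits that left out 1 library, Fgf2 keeping it without OCA B and F3 without OCA A (adjusted p up to 0.151 and 0.109). Fn1, the fibronectin gene, overlapped between the groups, with 168 CPM in OCA B and 157 CPM in DMSO C. It lost its call with DESeq2 (adjusted p = 0.377), in robust estimation (0.427) and with the length trend offsets (0.0580). Its call was also lost in each fit that left out 1 library but the one without OCA B (up to 0.266).

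The MYC targets are mostly genes of ribosome production and growth. Of 32 tested, 1 rose, none fell and 31 were not called, beside 2.18% of all tested genes higher and 3.03% lower, with a median log2 fold change of 0.04, while Myc itself fell. At an unadjusted p under 0.05, 1 gene was lower and 2 were higher, beside 2405 of all 12687 tested genes in either direction. DESeq2 and limma-voom each called 0 lower and 1 higher. Ccnd2, the cyclin D2 gene, rose, with 1252 ± 97.8 CPM in DMSO and 1627 ± 24.8 in OCA (adjusted p = 0.0127). It was not called without DMSO A, DMSO C, OCA A or OCA C (adjusted p between 0.0661 and 0.0765). Nor was it called without OCA B and DMSO A together (0.147).

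Of 15 tested genes of the MYC-MAX-MXD network, none rose or fell, and DESeq2 and limma-voom called 0. At an unadjusted p under 0.05, 3 were lower and 0 higher, beside 2405 of all 12687 tested genes in either direction. Without OCA B and DMSO A together 1 gene of the network was called lower. Its members with the highest levels were Bin1, whose protein binds MYC, with 190 ± 9.04 and 185 ± 9.30 CPM, and Mga, a MAX-binding repressor gene, with 148 ± 18.0 and 124 ± 12.8 CPM. Max itself, named after its values were seen, had 105 ± 4.01 and 111 ± 7.36 CPM. Of 5 tested EGR relatives and NAB corepressors, none was called, and DESeq2 and limma-voom called 0. At an unadjusted p under 0.05, 1 was lower and 0 higher, beside the same share of all tested genes. Nab1 had 118 ± 4.08 CPM in DMSO and 120 ± 8.05 in OCA. Nab2, an EGR1 target and corepressor, had 61.7 ± 3.05 and 53.3 ± 3.55 CPM, a log2 fold change of -0.21 (adjusted p = 0.154).

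**Figure D5:**
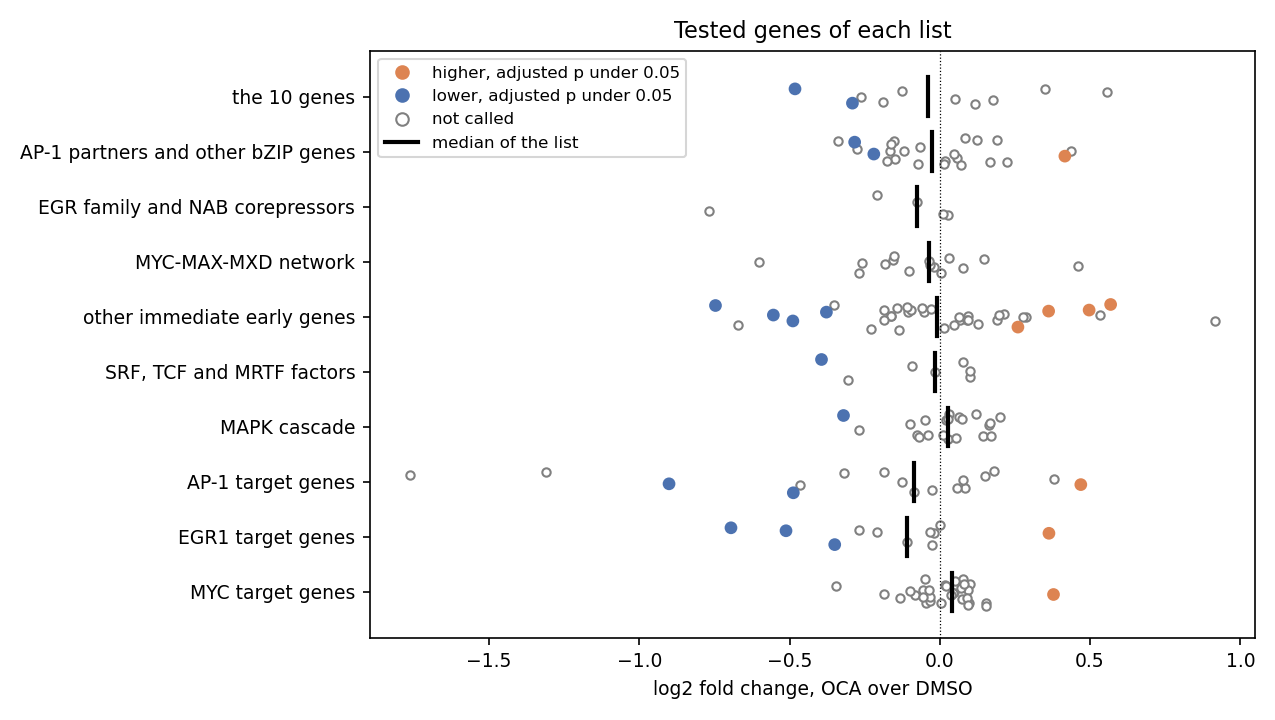
Log2 fold change of every tested gene (points) in each list, with genes called higher in orange, genes called lower in blue, genes not called open, and the list's median as a black bar. The other immediate early genes hold 4 called in each direction, and the 32 MYC targets cluster around a median of 0.04 with 1 called.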

How the data were processed

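Reads were processed by the authors: the submitters' processing notes name STAR, HOMER and mm10, and the sources used here do not state versions or settings. The authors deposited estimated counts over exons, 1 row a gene, in steps of 0.5, and the file headers name no scaling. They were rounded here to whole numbers (ties to even). Length is the deposited exonic length in bases. Between 26.5% and 29.8% of values in a column were not whole. Columns were matched to samples by title, and 0 count columns were left out. Libraries of a group differed beyond sampling noise (chi-square per degree of freedom 4.30 to 7.78).

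edgeR 4.0.16 in R 4.3.3 (filterByExpr, TMM, glmQLFit, glmQLFTest, no block) tested 12687 genes two-sided with Benjamini-Hochberg adjustment. SE is the log2 fold change divided by the square root of F, and intervals are 95%. CPM come from unrounded counts. The script was tested on simulated data, with 50 changed genes, picked at random, at each size of change. The simulated spread followed a trend over all genes and not each gene's own spread, so recovery may differ for a given gene. The script recovered 48% of genes changed 1.3-fold, 62% at 1.5-fold and 92% at 2-fold, and called 13 unchanged genes. A gene that did not pass the test may therefore still have changed by a small amount. Alternatives were DESeq2 1.42.0, limma-voom (limma 3.58.1), 3 scalings, 2 filters, a replicate block, robust estimation, unrounded counts, length trend offsets and left-out libraries. The lists, members and naming rule were chosen with earlier results of these data known. The rule names all 10 genes, up to 4 called genes a list (smallest p), up to 2 of the highest level where none was called, and the 3 closest profiles (mean of at least 5 CPM, pseudocount 0.5) of the 3 members with the smallest p.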

Additional observations from a re-analysis of the deposited data

How the results depend on the processing

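The members called lower numbered 2 in every planned fit other than those without DMSO A, OCA A or OCA C (1 each, Myc) and without OCA B and DMSO A together (3), so that leaving out 1 library gave 1 to 2. With the length trend offsets the 2 were Myc and Junb. Over all tested genes, 384 were lower, with 703 without a filter, 228 with the length trend offsets, 605 without OCA B and DMSO A together and 104 to 758 when 1 library was left out; the cause was not tested. The 276 higher genes became 161 to 363 when 1 library was left out. The length trend offsets moved the share of called genes that were higher from 41.8% to 60.3%. Fosl1, never called, had a log2 fold change of -0.0030 with the length trend offsets, -0.063 without OCA B and DMSO A together and -0.0094 to 0.15 without 1 library. The other 9 members kept their sign in every alternative in which they were tested. Fosb was not tested with the filter of 5 CPM. No scaling moved the median of all genes by 0.1.

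Samples with the same replicate letter did not deviate together (correlations 0.02 for A, -0.06 for B and 0.12 for C over 10735 genes), so the letter was not taken as a pairing. Across letters, the highest correlation was that of DMSO A with OCA B (0.18) and the lowest that of DMSO A with OCA C (-0.21). With the replicate block 508 genes were lower and 306 higher, and the members called were 2 lower and 0 higher. Fos and Fosb rest on few counts, which limits their precision.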
